A study of Homo sapiens with 16 samples.

Results

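The subject here is p65 binding around 10 genes that set the threshold for apoptosis: CFLAR, CASP8, BCL2, BCL2L1, BCL2A1, MCL1, BCL2L11, BBC3, BID and TNFAIP8. They were taken by name, as 10 of 19962 protein-coding genes on the autosomes and X, and the window of each gene ran from 50 kb upstream of its start to 10 kb past its end, introns included. The windows together held 836.9 kb around the 6 anti-apoptotic genes (CFLAR, BCL2, BCL2L1, BCL2A1, MCL1 and TNFAIP8) and 470.0 kb around the 4 pro-apoptotic genes (CASP8, BCL2L11, BBC3 and BID). HT29 and SW480, established human colon cancer cell lines, had been engineered with an empty vector (mock) or to express transduced ERβ, the estrogen receptor encoded by ESR2, no estradiol was added, and every ChIP library came from cells given TNFα at 30 ng/ml for 30 min and cross-linked with DSG and formaldehyde. There were 3 p65 ChIP-Seq libraries and 1 input library for each of HT29 mock, HT29 ERβ, SW480 mock and SW480 ERβ, 16 tracks in all. The receptor was introduced into both lines and each ERβ line was compared with its own mock line, and no cells without TNFα were analysed here, so the values describe p65 on chromatin after TNFα and not its induction.

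TNFα receptors can signal to survival or to death. On the death side, CASP8 is the initiator caspase of death receptors, and it cleaves BID, whose fragment carries the signal to mitochondria. CFLAR encodes c-FLIP, which blocks CASP8 activation and is a well-known NFκB target. At mitochondria, the BCL2 relatives BCL2L1 (BCL-XL), BCL2A1 and MCL1 restrain outer membrane permeabilisation, whereas the BH3-only proteins BCL2L11 (BIM), BBC3 (PUMA) and BID oppose them. TNFAIP8 was named as a TNFα-induced protein that protects cells from death. p65, encoded by RELA, is the transactivating subunit of the common NFκB dimer and binds the κB consensus.

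A 200-bp bin was listed where a group's mean signal, in scaled tags per base, was at least 2 and at least 4 times that of its matching input. Across the 10 windows 44 bins were listed in at least 1 group, and they formed 19 regions, each described by its bin of highest mean over the 12 ChIP libraries. The κB consensus matched in 9 of the 19 region bins (47.4%), and in 38.6% of the 12569 bins listed across the genome and 2.91% of all 14555311 bins. The 19 are the highest bins of their regions, whereas the genome's listed bins include the flanks of regions. Motif shares of the 2 sets, here and below, are thus not of like bins. The sequences below are from GRCh38, plus strand, with κB matches in capitals; the first 4 are whole bins, shown because the comparisons turn on them, and the rest are stretches of 30 bases around the matches of the other regions.

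BID, chr22:17781801-17782000: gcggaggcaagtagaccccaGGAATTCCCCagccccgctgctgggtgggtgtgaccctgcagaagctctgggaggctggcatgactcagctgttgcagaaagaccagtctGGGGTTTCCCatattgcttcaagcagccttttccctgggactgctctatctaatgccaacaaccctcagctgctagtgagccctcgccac
BBC3 intron, chr19:47227601-47227800: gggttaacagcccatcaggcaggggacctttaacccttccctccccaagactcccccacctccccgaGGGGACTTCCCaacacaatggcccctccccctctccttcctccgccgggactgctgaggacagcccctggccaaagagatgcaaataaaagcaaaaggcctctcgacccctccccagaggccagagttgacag
CFLAR intron, chr2:201158201-201158400: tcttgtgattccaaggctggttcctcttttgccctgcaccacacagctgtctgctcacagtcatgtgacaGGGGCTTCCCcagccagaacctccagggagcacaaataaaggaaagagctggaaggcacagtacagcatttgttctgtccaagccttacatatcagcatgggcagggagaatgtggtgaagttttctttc
BCL2L11 far upstream, chr2:111071801-111072000: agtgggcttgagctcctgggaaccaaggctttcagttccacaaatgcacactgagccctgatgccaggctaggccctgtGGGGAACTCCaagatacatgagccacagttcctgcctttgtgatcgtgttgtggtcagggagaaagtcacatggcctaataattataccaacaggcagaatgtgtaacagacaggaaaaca
BBC3 start, chr19:47231363-47231392: ctccgcgccGGGGGTTTCCCtgcagcgggg
CFLAR intron, chr2:201149248-201149277: ttggaatgcaGGGAAGTTCCaaagtagcac
CASP10 start, chr2:201182970-201182999: gctttacctgGGGAAACCCCaagctctaca
MCL1 start, chr1:150579557-150579586: agaaaactggGGAAGACCCCgactccttac
TNFAIP8 intron, chr5:119300025-119300054: gcctaggaaGGGGAACTCCCtgaccccttg

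The BID bin held 2 separate κB matches and an AP-1 site (TGACTCA), whereas the runs of capitals at the BBC3 intron, the BBC3 start and TNFAIP8 each held 2 overlapping matches. AP-1 sites were in 2 of the 19 regions, at BID and at the weaker TNFAIP8 region, against 9.88% of bins listed across the genome. The RUNX letters TGTGGT were in 2 regions, the CFLAR intron and the far upstream BCL2L11 bin, and the FOXA letters TGTTTAC were in 0, with 15.6% and 4.46% of the genome's listed bins holding them. These are matches of letters on either strand and not measured sites of a factor.

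Before any comparison the libraries were set against their labels. The ratio of ESR2 coding exon signal to the rest of ESR2 was 1.10 to 1.57 in the mock ChIP libraries and 2.30 to 6.80 in the ERβ ChIP libraries, and all 12 ChIP libraries correlated better with the inputs of their own line. The depth of each library cannot be read from tracks scaled to 1 total, so no counting interval is given. The number 1 library of HT29 mock and that of HT29 ERβ stood apart with higher signal at most regions, and the counts of listed bins and called sites are given without them below. The ERβ inputs came from another series of libraries, so a fold over input in an ERβ group also carries that difference. The signal is from bulk chromatin, in which binding in fewer cells and weaker binding per cell cannot be told apart.

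Listed bins were found at 6 of the 10 genes in HT29 mock (CFLAR, BCL2L1, MCL1, BBC3, BID and TNFAIP8), where 21.5% of all genes had one. The same 6 genes had one in HT29 ERβ (15.7% of all genes), 2 genes in SW480 mock (BBC3 and BID; 7.57%) and 5 in SW480 ERβ (CFLAR, BCL2L1, BCL2L11, BBC3 and BID; 31.6%). Windows differ in length, from 70.3 to 256.8 kb at the 10 genes beside a median of 0.0875 Mb over all genes. A longer window has more bins that can be listed, and these shares are not matched for length. In bins, the windows of the 10 genes held 34 in HT29 mock, 28 in HT29 ERβ, 5 in SW480 mock and 29 in SW480 ERβ. The whole genome held 6123, 4067, 1499 and 9577 in the same order. Without the number 1 library, the windows fell to 16 bins at 4 genes in HT29 ERβ and to 25 bins at 6 genes in HT29 mock. The genome's counts without that library are not given. All 5 bins of SW480 mock lay at the pro-apoptotic genes, 3 at BBC3 and 2 at BID.

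**Figure D1:**
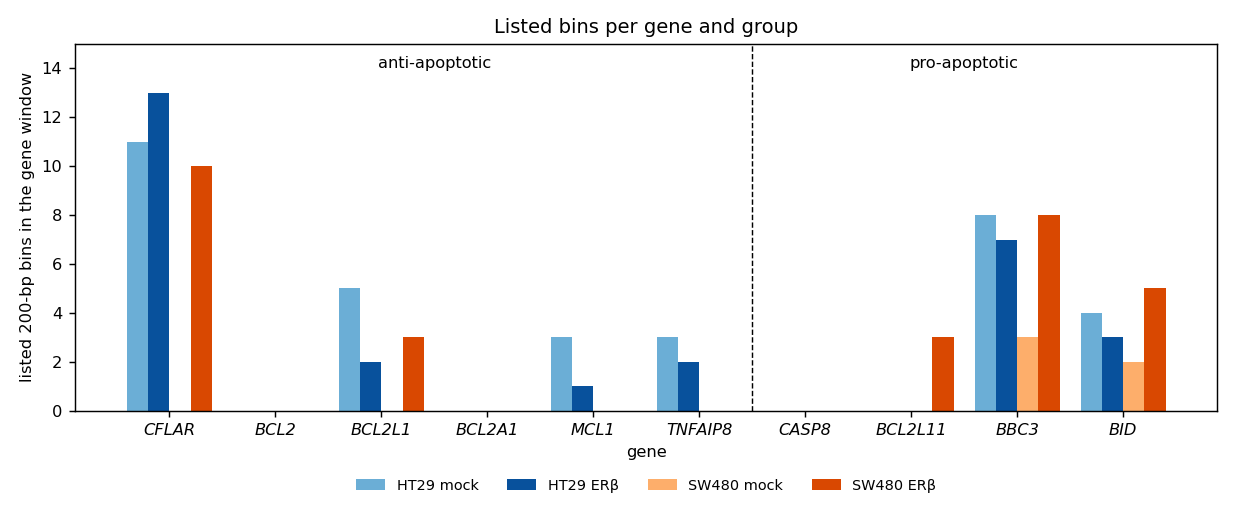
Listed 200-bp bins in the window of each gene (bars, count on the vertical axis from 0), by group, with anti-apoptotic genes left of the dashed line and pro-apoptotic genes right of it. CFLAR held 11, 13, 0 and 10 bins in the order of the bars, while BBC3 held 8, 7, 3 and 8.

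Per length of window, the anti-apoptotic genes held 26.3 listed bins per Mb in HT29 mock, 21.5 in HT29 ERβ, 0 in SW480 mock and 15.5 in SW480 ERβ. The pro-apoptotic genes held 25.5, 21.3, 10.6 and 34.0 bins per Mb in the same groups. The whole genome held 2.02, 1.34, 0.495 and 3.16 per Mb in the same order, so SW480 mock was the lowest group there as well. Bins were counted by the role of their window, whatever gene starts nearest. The anti-apoptotic values come mostly from the CFLAR window, which held 13 of the 25 anti-apoptotic bins, 3 of them at the CASP10 start. BCL2, BCL2A1 and CASP8 held 0. The pro-apoptotic values rest on few places, since 1 region held all 5 BID bins and 3 regions all 11 BBC3 bins. No test of the roles against each other was made, because the members were chosen by name and regions of a window share their gene.

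Of the 19 regions, 8 were listed in HT29 mock, HT29 ERβ and SW480 ERβ but not in SW480 mock, 3 in all 4 groups, 3 in both HT29 groups, 3 in HT29 mock alone and 2 in SW480 ERβ alone. The 3 regions listed in every group were the BID region and the intronic and start regions of BBC3. The 2 listed in SW480 ERβ alone were both in the BCL2L11 window. The shares of these patterns over the genome were not counted, so they cannot be called particular to these genes. Across the genome SW480 mock had the fewest listed bins (1499) and SW480 ERβ the most (9577). Being under a threshold is not absence: MCL1 at its start had a mean of 2.06 and 3.98 times its input in SW480 ERβ, just outside the rule, and the CFLAR bin at chr2:201149201-201149400 had 2.22 and 4.11 times, just inside.

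**Figure D2:**
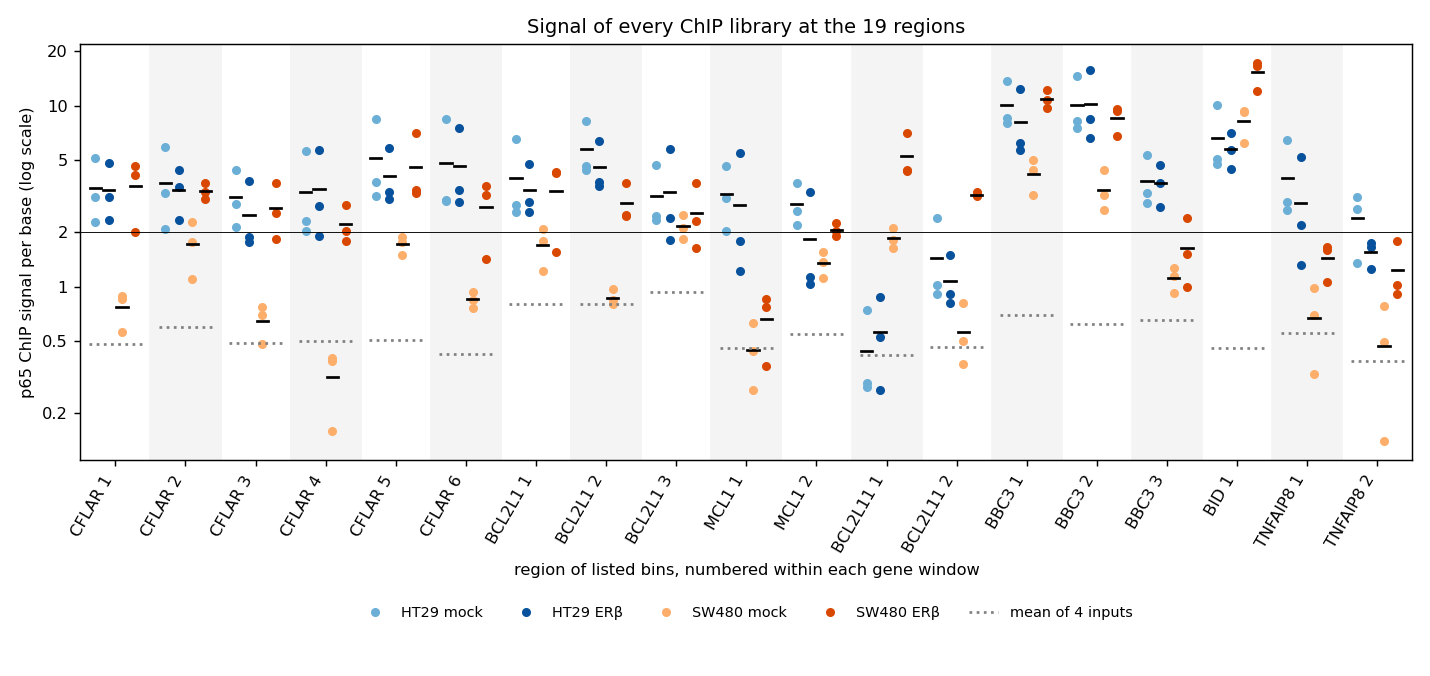
p65 ChIP signal per base of each of the 12 ChIP libraries (points, log scale) at the 19 regions, with the group mean of 3 libraries (short black bars) and the mean of the 4 inputs (dotted grey); the thin line marks the listing minimum of 2. SW480 mock has the lowest of the 4 group means at every region except the BID region and the far upstream BCL2L11 region, where an HT29 group is lowest. SW480 mock met the listing rule at only 3 of the regions, so its low place is partly set by that rule. It also had the fewest listed bins across the genome (1499).

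CFLAR, the inhibitor of death-receptor signalling, had the largest set, 6 regions, of which 5 lay in the gene and 1 at the start of CASP10 next to it. The region of highest mean was intronic at chr2:201158201-201158400, 42136 bp downstream of the canonical start and 477 bp upstream of the start of the antisense transcript CFLAR-AS1. Its signal was 8.43, 3.16 and 3.80 in the HT29 mock libraries and 5.87, 3.04 and 3.33 in the HT29 ERβ libraries. It was 1.77, 1.89 and 1.49 in SW480 mock and 3.42, 7.04 and 3.28 in SW480 ERβ. SW480 mock thus lay below all libraries of the other groups there, without overlap. The bin also holds a κB match, printed above.

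The region at the CASP10 start (chr2:201182801-201183000), in a UTR of CASP10, a caspase related to CASP8, was also lowest in SW480 mock. HT29 mock read 8.43, 2.99 and 3.03 and HT29 ERβ 7.55, 2.95 and 3.45, while SW480 mock read 0.767, 0.94 and 0.85 and SW480 ERβ 1.42, 3.59 and 3.23. It lay 33949 bp beyond the nearest annotated CFLAR start, so its place in the CFLAR window does not tie it to CFLAR. Another region, in a UTR of CFLAR 9 bp from an alternative start (chr2:201118401-201118600), read 5.91, 2.10 and 3.31 in HT29 mock, 4.45, 2.33 and 3.55 in HT29 ERβ, 1.11, 2.29 and 1.76 in SW480 mock and 3.06, 3.75 and 3.36 in SW480 ERβ. The remaining CFLAR regions had group means of 2.5 to 3.52 in the HT29 groups, 0.318 to 0.768 in SW480 mock and 2.22 to 3.59 in SW480 ERβ. Those SW480 mock means were close to the inputs there, at 0.936 to 1.35 times.

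CASP8, which CFLAR inhibits, had no listed bin in its own window. Its highest bin over the 12 libraries, in an intron of CASP10 33036 bp before the canonical CASP8 start, had means of 1.47 in HT29 mock, 1.56 in HT29 ERβ, 0.386 in SW480 mock and 1.35 in SW480 ERβ, and the SW480 mock libraries, at 0.19 to 0.638, lay below all others. The CASP8 promoter (1 kb before to 100 bp after the start) read 0.370 ± 0.0533 to 0.543 ± 0.0265 over the 4 groups (SD, n = 3), with inputs of 0.381 to 0.503. p65 signal at the CASP8 start was thus close to the level of the inputs.

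BCL2L1, which encodes BCL-XL, had 3 regions, 2 in its long intron and 1 at its start. The intronic region at chr20:31713001-31713200, 9768 bp into the gene, read 8.22, 4.44 and 4.67 in HT29 mock and 6.41, 3.77 and 3.59 in HT29 ERβ. In SW480 mock it read 0.842, 0.803 and 0.970, near its input of 0.7, and in SW480 ERβ 2.47, 2.5 and 3.74. The other intronic region, at chr20:31704601-31704800, read 6.56, 2.58 and 2.84 in HT29 mock, 4.78, 2.94 and 2.58 in HT29 ERβ, 2.09, 1.23 and 1.80 in SW480 mock and 1.56, 4.33 and 4.28 in SW480 ERβ. The 2 SW480 groups overlap in that region, through the number 1 ERβ library. At the start the groups overlapped throughout, with means of 3.19 ± 1.34 in HT29 mock, 3.33 ± 2.14 in HT29 ERβ, 2.15 ± 0.338 in SW480 mock and 2.56 ± 1.09 in SW480 ERβ. None of the 3 bins matched the κB consensus. The inputs over the BCL2L1 window were 1.75 to 2.19 times the genome median in the 4 input libraries, so a fold over input there is smaller than the raw signal alone would give.

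MCL1, a short-lived guardian of mitochondria, had 2 regions. The intronic region at chr1:150563601-150563800 lay 15910 bp downstream of the canonical MCL1 start and 1585 bp upstream of the start of the lncRNA ADAMTSL4-AS1. The nearest canonical protein-coding start was that of ADAMTSL4, at 14292 bp, so the place of the region does not tie it to MCL1. This region read 4.64, 2.02 and 3.11 in HT29 mock and 5.48, 1.22 and 1.79 in HT29 ERβ. It read 0.270, 0.440 and 0.629 in SW480 mock and 0.770, 0.857 and 0.367 in SW480 ERβ, so every SW480 library lay below every HT29 library. At the MCL1 start (chr1:150579401-150579600) the means were 2.85 ± 0.815 in HT29 mock, 1.84 ± 1.30 in HT29 ERβ, 1.35 ± 0.217 in SW480 mock and 2.06 ± 0.175 in SW480 ERβ, and the HT29 groups overlapped.

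TNFAIP8 likewise had both of its regions listed in HT29 and none in SW480. The stronger, intronic in the longer transcripts at chr5:119300001-119300200, read 6.44, 2.65 and 2.95 in HT29 mock and 5.23, 2.20 and 1.32 in HT29 ERβ. It read 0.982, 0.694 and 0.330 in SW480 mock, whose mean was 1.07 times its input, and 1.07, 1.59 and 1.65 in SW480 ERβ, all below the listing minimum. The SW480 ERβ mean there was 5.30 times its input and missed the rule only by the minimum of 2. The weaker region, with the AP-1 letters, read 3.13, 1.36 and 2.69 in HT29 mock, and its means were 1.56 ± 0.264 in HT29 ERβ, 0.472 ± 0.321 in SW480 mock and 1.24 ± 0.472 in SW480 ERβ.

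BCL2 and BCL2A1, the founder of the family and a classical NFκB target in blood cells, had no listed bin in any group. The highest bin of the BCL2 window lay 47931 bp upstream of BCL2 and 494 bp from the start of KDSR, and its group means were at most 1.70, in SW480 ERβ. The BCL2 promoter itself read 0.162 to 0.214 in group means, with inputs of 0.122 to 0.214, and the inputs over the whole BCL2 window were only 0.505 to 0.747 times the genome median. BCL2A1 was highest in an intronic bin with 1.85 in SW480 ERβ and 0.60 to 0.84 in the other groups. Its promoter read 0.406 to 0.570 in group means, and its inputs 0.334 to 0.531.

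Among the BH3-only genes, BBC3 (PUMA) had 3 regions and, at 2 of them, means exceeded only by BID. The intronic region at chr19:47227601-47227800, 3499 bp downstream of the canonical start and 511 bp upstream of an alternative start, read 13.6, 8.55 and 8.0 in HT29 mock and 12.3, 6.27 and 5.73 in HT29 ERβ. It read 5.03, 4.40 and 3.22 in SW480 mock and 9.79, 12.2 and 10.8 in SW480 ERβ, so the SW480 groups did not overlap and SW480 ERβ overlapped both HT29 groups. The region 101 bp before the canonical start (chr19:47231201-47231400) read 14.7, 7.51 and 8.23 in HT29 mock, 15.8, 6.62 and 8.45 in HT29 ERβ, 3.20, 4.44 and 2.67 in SW480 mock and 6.80, 9.38 and 9.65 in SW480 ERβ. The SW480 mock libraries were again below all others. Further upstream, the last region (chr19:47232801-47233000) was listed in the HT29 groups only. It read 5.35, 3.31 and 2.89 in HT29 mock and 4.71, 2.77 and 3.77 in HT29 ERβ. In SW480 it read 1.27, 1.15 and 0.922 in mock and 0.992, 2.39 and 1.52 in ERβ. The SW480 ERβ mean was 4.78 times its input and missed the rule only by the minimum of 2.

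BID, the substrate of CASP8, had a single region, between protein-coding genes at chr22:17781801-17782000, 7431 bp upstream of the canonical BID start and 4578 bp past the start of the lncRNA LINC00528. Its mean over the 12 ChIP libraries, 9.0, was the highest of the 19 regions. The libraries read 10.1, 4.77 and 5.08 in HT29 mock and 7.08, 4.50 and 5.72 in HT29 ERβ. In SW480 they read 9.21, 6.22 and 9.41 in mock and 12, 16.6 and 17.3 in ERβ. All SW480 ERβ libraries lay above all others, while SW480 mock overlapped HT29 mock, an order of means unlike that of CFLAR and BBC3. The inputs over the BID window were 0.716 and 0.844 times the genome median in HT29 and 1.29 and 1.04 in SW480, a difference between the lines in the same direction as the signal, and the fit on signal divided by local input is given below. The BID promoter read only 0.298 to 0.438 in group means.

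BCL2L11 (BIM) had 2 regions, each listed in SW480 ERβ alone. The first, in an intron of ACOXL at chr2:111071801-111072000, 49014 bp upstream of the canonical start, read 0.748, 0.280 and 0.292 in HT29 mock and 0.530, 0.883 and 0.269 in HT29 ERβ. It read 1.63, 2.12 and 1.82 in SW480 mock and 4.40, 7.12 and 4.35 in SW480 ERβ, so every SW480 library was above every HT29 library. The second, in a UTR of BCL2L11 at chr2:111167601-111167800, read 2.40, 1.02 and 0.909 in HT29 mock, 1.49, 0.810 and 0.909 in HT29 ERβ, 0.502, 0.812 and 0.374 in SW480 mock and 3.17, 3.32 and 3.22 in SW480 ERβ. There the SW480 ERβ libraries were above all others and close to each other. At the BCL2L11 promoter the means were 0.927 to 1.33 with overlap of all groups.

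**Figure D3:**
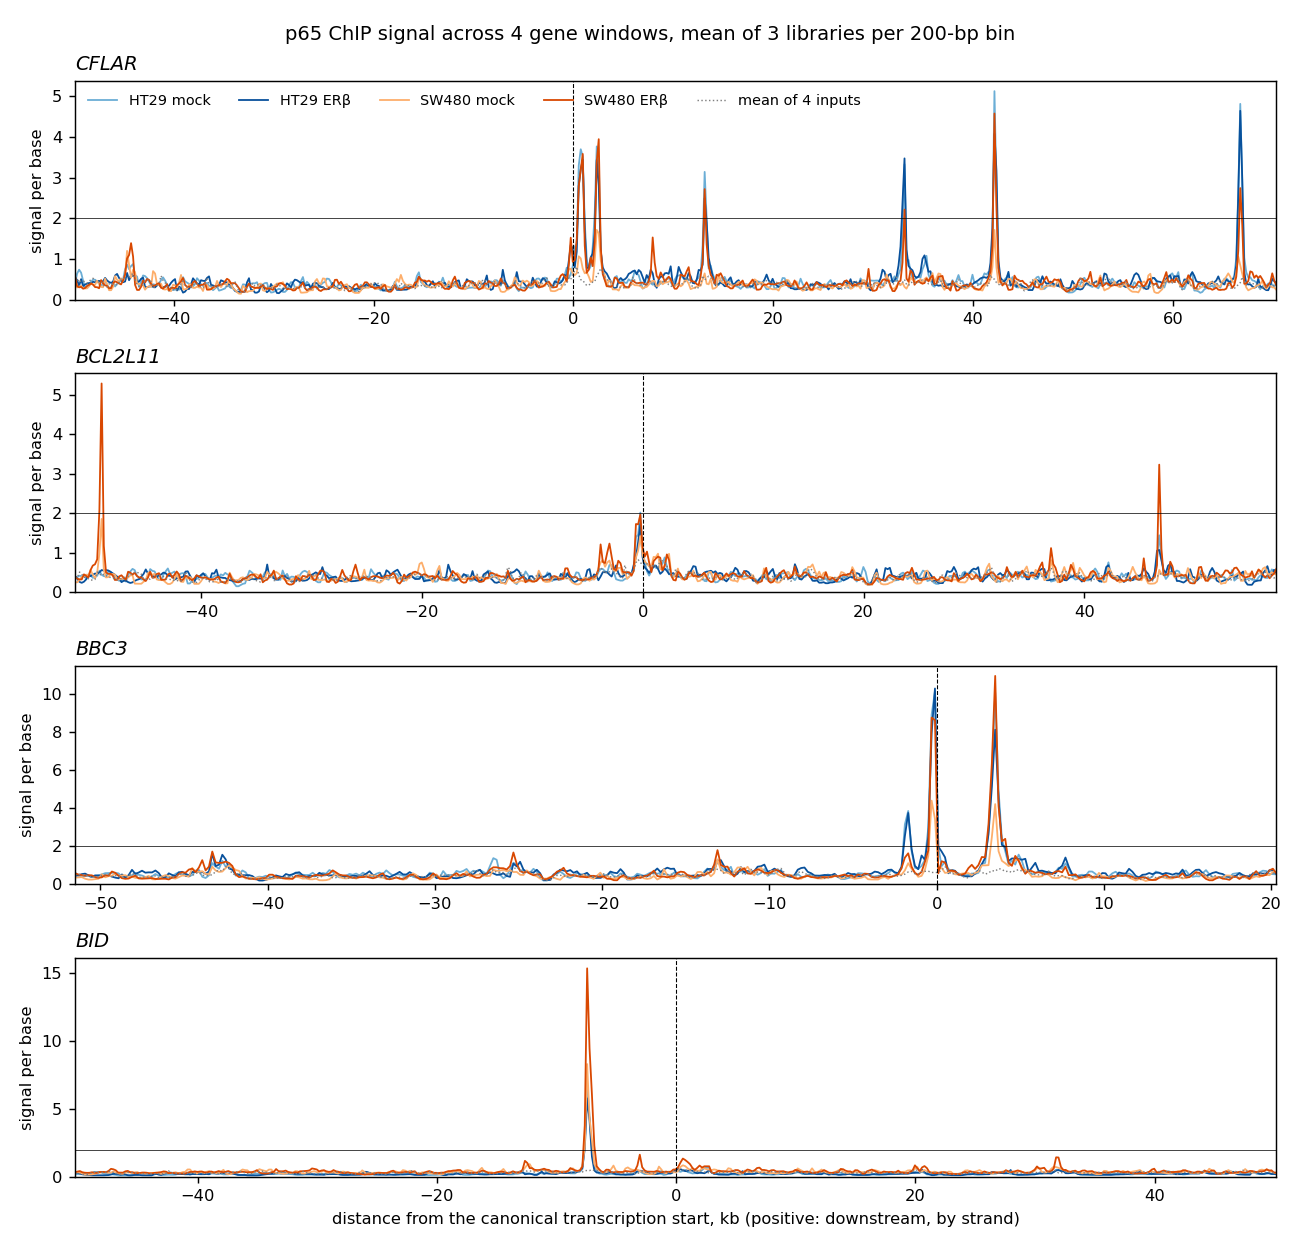
Mean p65 ChIP signal per base of each group (3 libraries) and mean of the 4 inputs (dotted) in 200-bp bins across the windows of CFLAR, BCL2L11, BBC3 and BID, against distance from the canonical transcription start in kb, positive downstream; the thin horizontal line marks 2. Peaks are narrow; the BID peak reaches 15.3 in SW480 ERβ and 8.28 in SW480 mock, and the far upstream BCL2L11 peak reaches 5.29 in SW480 ERβ, while the bin at the BCL2L11 start reaches 2.02 in HT29 mock, under 4 times its input.

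To compare groups, sites were taken from the whole genome without regard to group, as bins with a mean over the 12 libraries of at least 0.7 and at least 2 times the mean input, and limma was fitted on log2(signal + 1) over all 13109 sites. The 10 windows held 31 of them, 18 in windows of anti-apoptotic and 13 in windows of pro-apoptotic genes. These included every listed region, with 2 of the CFLAR regions joined in 1 site. Each site is counted by the role of its window, also where another gene such as CASP10 or KDSR starts nearer. Differences below are on the log2(signal + 1) scale, which understates changes of weak sites, with SE and Benjamini-Hochberg adjusted p over all sites. The comparisons share groups (SW480 mock is the control of 1 and the subject of another), so they are not independent of each other. A site high in 1 group can also reach the minimum of 0.7, or 2 times the mean input, through that group. The weak BID sites did so through SW480 ERβ. In HT29 mock, HT29 ERβ, SW480 mock and SW480 ERβ, the upstream site had means of 0.418, 0.442, 0.415 and 1.62. The site inside the gene had 0.476, 0.501, 0.660 and 1.42. Their calls with SW480 ERβ are counted below but are not independent of the filter.

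In HT29, ERβ was not followed by a call at any of the 31 sites (limma, 0 at adjusted p under 0.05 and 0 at unadjusted p under 0.05). Over all sites 2 were called, or 0.0153%, and 237 had an unadjusted p under 0.05. The differences ran from -0.51 at the MCL1 start to 0.52 before the CFLAR start, with a median of -0.02 against -0.13 over all sites. At that weak CFLAR site HT29 mock read 0.577 to 0.677 and HT29 ERβ 1.25 to 1.40, without overlap. The limma fit, which shares spread between sites, did not call it. The SE reached 0.50, at the BBC3 intron, where the number 1 libraries of both groups were highest. The replicate numbers pair the HT29 libraries, and with the number as a block the SE there was 0.14, 0 of the 31 sites were called and 4 had an unadjusted p under 0.05, beside 2 higher, 52 lower and 1866 at that p of all 13109 sites. Without the number 1 libraries of both groups 0 of the 31 were called and 5 had an unadjusted p under 0.05, beside 1 higher, 19 lower and 1342 at that p of all sites.

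In SW480, ERβ went with higher p65 signal at 15 of the 31 sites and with lower signal at 0, beside 31.6% of all sites called higher. In anti-apoptotic windows they were 8 of 18 (4 at CFLAR, and 1 each at BCL2, BCL2L1, BCL2A1 and TNFAIP8). In pro-apoptotic windows they were 7 of 13 (3 at BBC3, 2 at BCL2L11, and 1 each at CASP8 and BID). A CFLAR site among them is at the CASP10 start, the BCL2 site is near the KDSR start and the CASP8 site is in a CASP10 intron. The BID site is the weak one upstream. That site and the BCL2A1 site met the site filter through SW480 ERβ. The median difference was 0.62 at anti-apoptotic and 0.75 at pro-apoptotic sites and 0.49 over all sites. Since the whole table moved by that 0.49, the sites were also compared after centring each library on its median. That left 3 sites called higher: BCL2L11 in its UTR (0.89), CFLAR at 33136 bp (0.73) and the BBC3 intron (0.65). Over all sites centring turned the calls from 4148 higher and 2 lower to 752 higher and 687 lower. Scaling libraries to the bins outside the sites instead, an alternative added after the data were seen, kept the count at 15, beside 4019 of all sites.

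Among the called regions, the BCL2L11 UTR site had the largest difference, 1.45 (SE 0.28, adjusted p = 7.98e-05 by limma). CFLAR rose by 1.28 at 33136 bp (SE 0.25, adjusted p = 1.14e-04), 1.15 at the alternative start 13136 bp into the gene (SE 0.28, adjusted p = 0.0015) and 0.98 in the intron with the highest CFLAR signal (SE 0.30, adjusted p = 0.0119). The CASP10 start, in the CFLAR window, rose by 0.96 (SE 0.29, adjusted p = 0.00827). At BBC3 the intron rose by 1.21 (SE 0.33, adjusted p = 0.00399) and the start by 1.12 (SE 0.32, adjusted p = 0.00638). The far upstream BCL2L11 site rose by 1.12 (SE 0.31, adjusted p = 0.00431) and the BCL2L1 intron by 1.05 (SE 0.28, adjusted p = 0.00395). The BID region had a larger step in raw signal, but in this fit 0.82 (SE 0.34, adjusted p = 0.0559 by limma). The replicate numbers pair the SW480 libraries, and with the number as a block 20 of the 31 sites passed beside 5824 of all sites. Under the block BID passed (adjusted p = 0.0237), as did the CFLAR UTR site (0.71, adjusted p = 0.0126), the other BCL2L1 intron site (0.63, adjusted p = 0.0266), the stronger TNFAIP8 site (0.56, adjusted p = 0.0423) and the weak BID site inside the gene (0.54, adjusted p = 0.0455). The last of these met the site minimum through SW480 ERβ.

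The MCL1 sites had differences of 0.16 to 0.39 in SW480 and none passed, with or without the block. Neither did the BCL2L1 start (0.14, SE 0.30) or the upstream BBC3 region (0.29, SE 0.28). The count of 15 was 8 without SW480 mock 1 (1667 of all 13109 sites called higher), 8 without SW480 ERβ 2 (1973), 10 without SW480 ERβ 3 (2039), 11 without SW480 mock 2 (1893), 11 without SW480 mock 3 (3048) and 22 without SW480 ERβ 1 (8260). Without the number 1 libraries of both groups it was 20, beside 6839 of all sites. Both counts were highest without SW480 ERβ 1. In the fits without each library in turn, 6 of the 15 calls held every time: CFLAR at 13136 and 33136 bp, both BCL2L11 sites, the BBC3 intron and the BCL2L1 intron. Each of the other 9, the BBC3 start among them (highest adjusted p = 0.0587, without SW480 ERβ 3), was lost without at least 1 library.

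**Figure D4:**
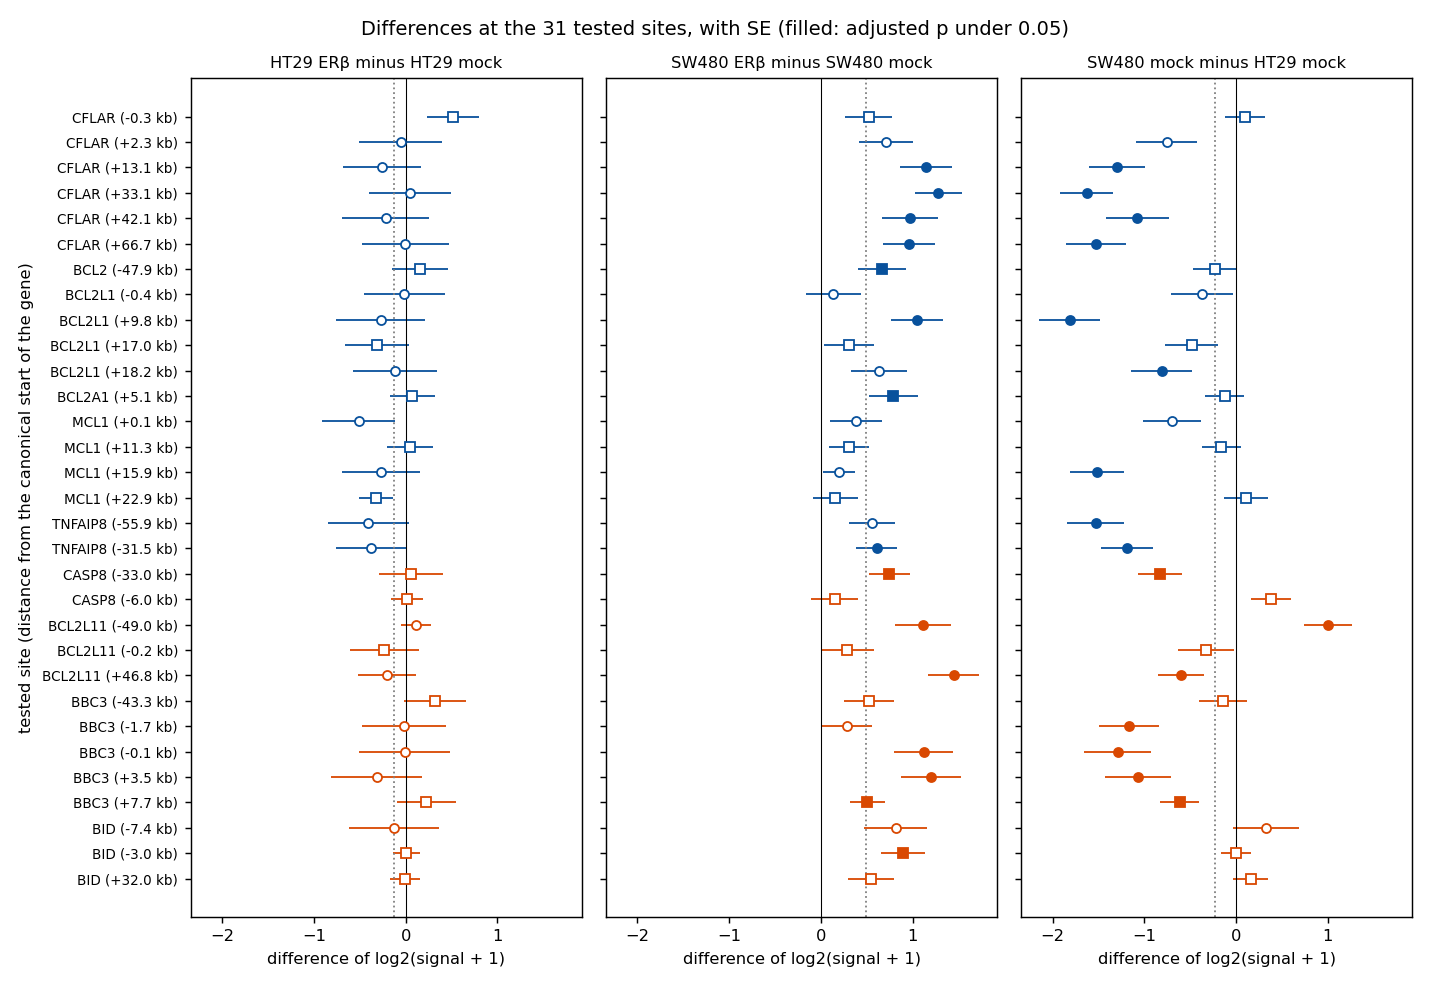
Difference of log2(signal + 1) at the 31 tested sites (horizontal axis, points with SE bars) for HT29 ERβ minus mock, SW480 ERβ minus mock and SW480 mock minus HT29 mock, with sites labelled by gene and distance from its canonical start; blue marks anti-apoptotic and orange pro-apoptotic genes, circles listed regions, squares other sites, filled symbols adjusted p under 0.05, and the dotted line the median of all 13109 sites. There are 0 filled symbols on the left, 15 in the middle, all above 0, and 16 on the right, of which 15 lie below 0.

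Between the mock lines, SW480 was lower than HT29 at 15 of the 31 sites (25.6% of all sites were called lower) and higher at 1 (9.75% of all sites were called higher). In the windows of anti-apoptotic genes 9 of 18 sites, the CASP10 start among them, were lower and 0 higher. The largest falls were at the BCL2L1 intron, -1.81 (SE 0.33, adjusted p = 1.89e-06 by limma), and at CFLAR 33136 bp, where it was -1.63 (SE 0.29, adjusted p = 5.77e-07). The stronger TNFAIP8 site had -1.53 (SE 0.31, adjusted p = 1.86e-05), the CASP10 start -1.53 (SE 0.32, adjusted p = 4.18e-05) and the MCL1 intron -1.52 (SE 0.29, adjusted p = 6.17e-06). At pro-apoptotic genes 6 of 13 were lower, 4 of them at BBC3 (-0.61 to -1.29), and 1 was higher, the far upstream BCL2L11 site at 1.00 (SE 0.26, adjusted p = 0.00115).

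The BID region did not pass between the mock lines (0.33, SE 0.36, adjusted p = 0.505 by limma), and its difference turned to -0.44 when each library was divided by the local input (SE 0.36, adjusted p = 0.357). After centring, which moves the median of all sites from -0.23 to 0.03, BID passed at 0.59 (adjusted p = 0.0167), the calls were 3 higher and 13 lower of 31, and those over all sites went from 1278 higher and 3356 lower to 2998 and 2717. Dividing each library by the local input left 1 higher and 14 lower, beside 734 and 3291 of 13090 sites. Without the number 1 libraries 3 sites were higher and 12 lower, beside 1797 and 2253 of all sites. Leaving out 1 library gave 11 to 17 sites called, beside 824 to 1782 higher and 2139 to 3626 lower of all sites, and 10 of the 16 calls held in all 6 of those fits, among them every CFLAR call except that in the intron with the highest signal, both TNFAIP8 calls and the MCL1 intron.

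Between the ERβ lines, 6 of the 31 sites were higher in SW480 (34% of all sites) and 2 lower (8.84% of all sites). The higher sites were both listed BCL2L11 regions, all 3 BID sites and a weak site in ADAMTSL4 within the MCL1 window. The weak BID sites among them met the site minimum through SW480 ERβ. The far upstream BCL2L11 region differed by 2.00 (SE 0.35, adjusted p = 3.06e-07 by limma), the BCL2L11 UTR region by 1.05 (SE 0.34, adjusted p = 0.00713) and the BID region by 1.27 (SE 0.46, adjusted p = 0.0178). The lower sites were the MCL1 intron at -1.05 (SE 0.30, adjusted p = 0.00204) and the upstream BBC3 region at -0.87 (SE 0.37, adjusted p = 0.0438). At CFLAR the differences were -0.56 to 0.11 and none passed. Divided by local input, the BID region differed by 0.99 (SE 0.47) and no longer passed (adjusted p = 0.0822). The MCL1 intron difference was -0.59 (adjusted p = 0.0582) without HT29 ERβ 1, the library highest there, and that of the upstream BBC3 region -0.72 (adjusted p = 0.0697). The upstream BBC3 call was lost in all 6 fits that left out 1 library, and on local input (adjusted p = 0.366 by limma). The far upstream BCL2L11 region passed in every fit that left out 1 library, and each of the other 7 calls was lost in at least 1, with 3 sites called without HT29 ERβ 2, HT29 ERβ 3 or SW480 ERβ 3 and 5 without SW480 ERβ 2. In those 4 fits 3001 to 3113 of all sites were higher and 797 to 1128 lower. Without the number 1 libraries of both groups 11 member sites were higher and 1 lower, beside 7890 and 853 of all sites. After centring, 3 sites were higher and 10 lower, and over all sites 3114 and 3130 in place of 4460 and 1159.

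The ERβ difference itself was larger in SW480 than in HT29 at 3 of the 31 sites (11% of all sites). These were the BCL2L11 UTR site with 1.65 (SE 0.40, adjusted p = 0.00562 by limma), CFLAR at 13136 bp with 1.40 (SE 0.46, adjusted p = 0.0359) and a weak site 3031 bp upstream of BID with 0.889 (SE 0.31, adjusted p = 0.048). The weak BID site met the site minimum through SW480 ERβ, so its call is not independent of the filter. With the replicate number as a block within each line, 18 of the 31 passed beside 6043 higher and 4 lower of all 13109. They were 11 of 18 at anti-apoptotic and 7 of 13 at pro-apoptotic genes, among them the BBC3 intron with 1.52 (adjusted p = 5.86e-05 by limma with the block). In HT29 that number sets only the number 1 pair apart. After centring 0 passed, beside 140 higher and 32 lower of all sites, and without the number 1 library of every group 17 passed beside 5912 higher and 6 lower of all sites. Leaving out 1 library gave 11 calls without HT29 ERβ 1 (3825 of all sites), 10 without SW480 ERβ 1 (4040), 5 without HT29 mock 2 (1637) and 2 without HT29 mock 3 (1127). It gave 1 call without HT29 mock 1, HT29 ERβ 2, HT29 ERβ 3, SW480 ERβ 2, SW480 ERβ 3 or any of the SW480 mock libraries, with 500 to 1125 of all sites called. The BCL2L11 UTR site alone of the 3 passed in all 12 of those fits.

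At promoters, taken as 1 kb before the canonical start and 100 bp after it, limma was fitted over 18748 genes, and all 10 members could be tested. BBC3 was the member with most promoter signal, 4.66 ± 1.71 in HT29 mock, 4.49 ± 1.78 in HT29 ERβ, 1.98 ± 0.302 in SW480 mock and 3.87 ± 0.625 in SW480 ERβ (SD, n = 3). On the deposited scale without a block it was the only member called in either direction in the 5 comparisons: higher with ERβ in SW480, by 0.70 (SE 0.19, adjusted p = 0.0197; 3.42% of all promoters were higher), and lower in SW480 mock than in HT29 mock, by -0.89 (adjusted p = 0.033; 4.74% were lower). BCL2L1 came next with means of 2.45 ± 0.973 (HT29 mock), 2.21 ± 1.16 (HT29 ERβ), 1.65 ± 0.138 (SW480 mock) and 2.65 ± 0.458 (SW480 ERβ), and with the block it too was higher with ERβ in SW480 (1031 of all promoters were higher in that fit). After centring the libraries on their medians, MCL1 (-0.32), CASP8 (-0.23) and TNFAIP8 (-0.34) were also called lower in SW480 mock than in HT29 mock, and CASP8 (-0.31) and TNFAIP8 (-0.28) lower in SW480 ERβ than in HT29 ERβ. In those fits 2040 and 1894 of all promoters were lower, against 889 and 451 without centring. In HT29, 0 of the 10 promoters were called and 0 had an unadjusted p under 0.05, beside 0 of all promoters called (0%) and 598 with an unadjusted p under 0.05. Between the ERβ lines 0 of the 10 were called (31.1% of all promoters) and 0 had an unadjusted p under 0.05, and for the difference of ERβ differences these were 0 and 0 (0.16%), with 2, BBC3 and BCL2L1, called under the block beside 730 higher and 13 lower of all promoters. The SW480 BBC3 call was lost without any 1 of 5 of the 6 libraries, to an adjusted p of 0.0658 to 0.219, and the mock line call without 4 of 6 and on local input (adjusted p = 0.119).

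Windows of 29 other genes of the same pathways were read by the same rule. Listed bins were found at 11 of them in HT29 mock, 9 in HT29 ERβ, 3 in SW480 mock and 14 in SW480 ERβ, where 21.5%, 15.7%, 7.57% and 31.6% of all genes had them. Here as well the shares are not matched for window length. CASP10 is among the 29, and its window overlaps that of CFLAR and holds CFLAR bins already described. RIPK1, the kinase recruited to the TNF receptor, BIK, a BH3-only gene, and BCL2L12 had a listed bin in all 4 groups. The highest listed RIPK1 bin had means of 5.68 in HT29 mock, 4.91 in HT29 ERβ, 5.17 in SW480 mock and 8.15 in SW480 ERβ. FADD, the adaptor that brings CASP8 to death receptors, had 4.26, 3.77 and 5.89 in HT29 mock, HT29 ERβ and SW480 ERβ. It had no listed bin in SW480 mock. CFLAR had listed bins in the same groups, and so did CASP9, CASP10, BOK, BAD and PMAIP1. TRADD, BMF, BCL2L2 and TNFAIP8L1 had listed bins in SW480 ERβ alone. Such windows also hold other genes, so a bin in a window is not assigned to the gene.

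The sites of the genome whose signal over the 12 ChIP libraries was most like that of the BID region were named by nearest protein-coding start. They lay 142401 bp downstream of the SEPTIN9 start at chr17:77423801-77424000 (r = 0.979), 197618 bp downstream of the RNLS start at chr10:88385601-88385800 (r = 0.976) and 14291 bp upstream of the LRP5 start at chr11:68298201-68298400 (r = 0.969). These are Pearson correlations of log2(signal + 1) over 12 libraries of 4 groups, given as a description.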

How the data were processed

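p65 ChIP-Seq tracks were analysed from 12 ChIP and 4 input libraries. The authors aligned reads with STAR and made the tracks with HOMER as coverage scaled to 1 total, so the deposited values are a signal in scaled tags per base on GRCh38. The ERβ inputs came from another series. Gene models are from GENCODE release 44. Signal was averaged in 200-bp bins with Python 3.11.15, numpy 2.4.6 and pandas 2.3.3, and sequences were read with pysam 0.24.0. Tests used limma 3.58.1 in R 4.3.3 on log2(signal + 1), two-sided, fitted to the libraries of the groups compared (all 12 for the difference of ERβ differences). Benjamini-Hochberg adjustment was over all 13109 sites or 18748 promoters. Of 19962 promoters, 1214 were left out for low local input or for no signal in at least 1 ChIP library. The fit was tested on simulated data. All members were described by their listed regions or, where they had none, their promoter, and other pathway genes were named only where they had a listed bin; weak sites outside listed bins were named after their values were seen. Within each line, deviations of same-numbered libraries correlated (r = 0.514, 0.200 and 0.222 in HT29 and 0.278, 0.114 and 0.178 in SW480). In HT29, mock 2 with ERβ 3 (r = 0.234) and mock 3 with ERβ 2 (r = 0.155) were similar. There the numbers set only the number 1 pair apart. In SW480, different numbers had r of at most 0.0411, so the numbers pair those libraries. The replicate block is an alternative. The members and gene lists were chosen with earlier results of these data known. Per the labels each ChIP was performed 3 times on each cell line, so p-values measure the spread between those experiments only. Alternatives were other thresholds, bin offsets, pseudocounts, inputs, centring, the block and leaving out libraries.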

Additional observations from a re-analysis of the deposited data

Results flagged for a closer look

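At 3 of the 31 tested sites the ERβ difference itself was larger in SW480 than in HT29, near the 11% of all sites called so. By the interaction term in limma, on the log2(signal + 1) scale, it was 1.65 at the BCL2L11 UTR region, 1.40 at the alternative CFLAR start and 0.889 at the weak site upstream of BID. The first passed in every fit that left out 1 library, the CFLAR site was lost in 8 of 12 such fits and the BID site in 9 of 12, and after median centring 0 of the 3 passed. The BID site met the site minimum through SW480 ERβ, so its call is not independent of the filter. The median of this difference over all 13109 sites was 0.63.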

How the results depend on the processing

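With a minimum mean of 3, listed bins in the gene windows were 16 in HT29 ERβ and 19 in SW480 ERβ, with no genome count given at that minimum. Of member sites, median centring of the libraries left 3 calls for ERβ in SW480, 13 between the ERβ lines and 0 for the difference of ERβ differences, and of member promoters 4 between the mock lines (all promoters 1673 higher and 2040 lower) and 2 between the ERβ lines (1785 and 1894). Centring also turned a weak BBC3 site in SW480 to -0.0452. With the replicate number as a block, calls were 3 sites between the ERβ lines (all sites 3013 higher and 767 lower), 18 sites for the difference of differences, and 2 promoters for ERβ in SW480, 0 between the mock lines and 2 for the difference of differences. Across lines the numbers do not pair the libraries (r = -0.0639 to 0.0321), so the block there is a shared number only. A site mean of at least 1 left 5 of 25 sites between the ERβ lines (3368 higher and 874 lower of 9657). Without the number 1 libraries of all groups, calls were 17 sites for the difference of differences and 2 promoters each for ERβ in SW480, between the ERβ lines and for the difference of differences (938, 5800 and 711 of all promoters higher). On local input, 0 promoters were called between the mock lines (493 higher and 203 lower of all). In the gene windows, leaving out 1 library gave 25 to 39 listed bins in HT29 mock and 16 to 34 in HT29 ERβ. It gave 5 to 6 in SW480 mock and 27 to 33 in SW480 ERβ. With all libraries the whole genome held 6123, 4067, 1499 and 9577 listed bins in the same order. Its counts without 1 library are not given, so these ranges cannot be set against the genome. Site calls without 1 library were 0 in HT29, 8 to 22 for ERβ in SW480 and 11 to 17 between mock lines. They were 3 to 9 between ERβ lines and 1 to 11 for the difference of differences. Promoter calls ran from 0 to 3 for ERβ in SW480, beside 170 to 1340 of all promoters higher. They ran from 0 to 2 between mock lines (553 to 890 of all lower) and 0 to 1 between ERβ lines (3607 to 6038 of all higher). Scaling to bins outside the sites was chosen after seeing the data. Of 606 recomputed values of single calls, 476 kept the call, 129 lost it and 1 reversed. Depth is unknown, so weak sites carry no counting interval.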
